A study of Homo sapiens with 6 samples.

Results

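The 8 genes described here encode the mTOR kinase (MTOR), 3 proteins of its complexes (RPTOR, RICTOR and DEPTOR), the kinases AKT1 and AKT2, and the tuberous sclerosis proteins TSC1 and TSC2. They were taken by symbol from a deposited table of 58735 rows, each symbol matched 1 row, and all 8 were among the 15935 genes that passed the expression filter, so no member dropped out. The table holds poly(A) RNA-seq counts from RD cells, an established human embryonal rhabdomyosarcoma (ERMS) line. Cells were transduced with lentivirus carrying a scrambled shRNA (control, n = 3) or a TAK1 shRNA (TAK1 knockdown, n = 3), so every sample had been through transduction. TAK1, whose gene name is MAP3K7, is a kinase that relays cytokine and growth factor signals to MAPK and NF-kB pathways, and the study asked how its loss alters oncogenic signaling in rhabdomyosarcoma. A single TAK1 shRNA was sequenced, so knockdown of TAK1 and other effects of that shRNA cannot be told apart.

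mTOR is a serine/threonine kinase that works in a pair of protein complexes. mTORC1, built on Raptor (RPTOR), promotes protein synthesis and restrains autophagy, whereas mTORC2, built on Rictor (RICTOR), phosphorylates AKT, and DEPTOR binds and inhibits mTOR in both complexes. AKT, activated downstream of PI3K, phosphorylates TSC2, and the TSC1-TSC2 complex switches off the small GTPase RHEB that activates mTORC1; the pathway governs growth of skeletal muscle and is often active in rhabdomyosarcoma.

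Total counts ran from 28839898 to 34469323 per sample, and levels are given as CPM, the reads of a gene scaled to a common library size after TMM normalization (trimmed mean of M-values). The targeted gene, MAP3K7, fell from 77.3 ± 0.743 to 31.34 ± 2 CPM (mean ± SD, n = 3 per group; log2 fold change -1.30, edgeR quasi-likelihood test with Benjamini-Hochberg adjustment, adjusted p = 4.45e-14), as the labels state. Of 9 muscle lineage markers, 7 were above 100 CPM in every sample, while MYF5 was at 0 and MYF6 had at most 1 count. The summed muscle markers ran from 2407 to 2413 CPM in control and from 2259 to 2420 CPM in knockdown samples. Within that list MYOD1 (log2 fold change 0.37) and MYOG (0.27) rose and CHRNA1 fell by 0.40 on the log2 scale, and the part of these shifts in the results below was not tested. Markers of epithelial, blood, endothelial, liver and glial cells, 10 genes in all, summed to at most 0.623 CPM in any sample, with CDH1, CD3E and CDH5 at 0 throughout. In bulk RNA, fewer cells of a kind and less RNA per cell cannot be told apart. The labels number the replicates but do not say that cultures were separate. The p-values therefore weigh the group difference against the variation among these samples, and may not hold for new cultures.

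Knockdown of TAK1 went with less MTOR mRNA and with more DEPTOR and TSC2 mRNA. A gene was called when its adjusted p was under 0.05 and its absolute log2 fold change was at least 0.25. By this rule 2 of 8 members rose (DEPTOR and TSC2), against 11.8% of all genes tested, and 1 fell (MTOR), against 11.3%. In either direction 3 of 8 members (37.5%) were called, against 23.1% of tested genes. With the adjusted p alone, 5 of 8 members passed against 33.3% of tested genes; RPTOR and AKT1 joined the higher ones, giving 4 against a background of 16.1%, while 1 was lower against 17.2%. The fold change was above 0 for 7 of 8 members, against 8370 of the 15935 genes tested, and the members' signs held in all 14 alternative fits. TSC1, counted among the 7, was close to 0 (log2 fold change 0.01, and 0.0008 without control replicate 3). The median over the members was 0.15 on the log2 scale, against 0.02 over all tested genes. Control and knockdown samples did not overlap for 6 of 8 members, as for 43.9% of tested genes. Among absolute fold changes of tested genes, that of DEPTOR was larger than 93.5%, that of MTOR larger than 67.9% and that of TSC1 larger than 4.34%. Knockdown replicate 1 held the highest knockdown value of 5 members (MTOR, RPTOR, AKT1, AKT2 and TSC2), and values without this sample are given where they change a call.

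**Figure D1:**
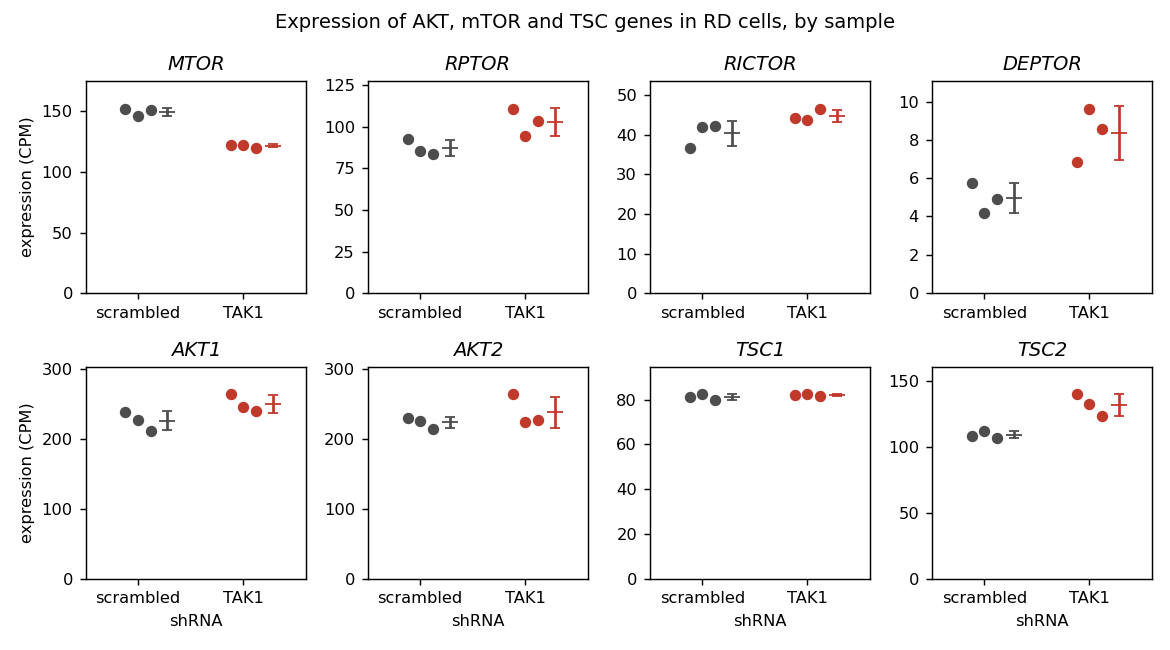
Expression of each of the 8 genes in CPM (y axes start at 0 and differ between panels), with a point for each of 3 scrambled (grey) and 3 TAK1 shRNA samples (red) and the mean ± SD beside them. MTOR is the gene whose knockdown samples all lie below the controls, TSC1 and AKT2 overlap, and the other 5 genes lie above them in every knockdown sample.

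MTOR and TSC2 were called in opposite directions, so the 250 bases before their start sites are set side by side below, from RefSeq on GRCh38.p14. MTOR starts at the lower end of chr1:11262552-11262801 (minus strand) and TSC2 at the upper end of chr16:2047735-2047984 (plus strand), and each is printed 5′ to 3′ on the strand of its gene. Capitals mark 3 motifs found on either strand. The CCAAT box was sought by the letters of its name, which read ATTGG when the motif lies on the other strand. The GC box was sought by its usual core of GGGCGG and reads as the reverse complement of that core in the MTOR window. The E-box core, a palindrome, was sought with the letters CACGTG. These motifs were chosen after the data were seen, and none of the matches in the printed windows overlap.
MTOR: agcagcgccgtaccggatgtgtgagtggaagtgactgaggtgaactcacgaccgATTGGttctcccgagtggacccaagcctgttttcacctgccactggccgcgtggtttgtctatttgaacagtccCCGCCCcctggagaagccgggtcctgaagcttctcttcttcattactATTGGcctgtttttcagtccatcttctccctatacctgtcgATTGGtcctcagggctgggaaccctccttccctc
TSC2: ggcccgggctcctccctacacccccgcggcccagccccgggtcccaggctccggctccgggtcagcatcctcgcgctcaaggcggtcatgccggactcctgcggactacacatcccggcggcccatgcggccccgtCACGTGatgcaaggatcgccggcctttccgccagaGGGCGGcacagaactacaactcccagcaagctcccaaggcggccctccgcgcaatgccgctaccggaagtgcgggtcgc
The MTOR window held 3 CCAAT motifs, 1 GC box and no E-box core, with a GC content of 55.6%. The TSC2 window held 1 E-box core, 1 GC box and no CCAAT motif, with a GC content of 71.6%. Among 35116 RefSeq windows of the same length, the E-box core was in 6.34%, the CCAAT box in 32% and the GC box in 42.6%. Of the 7 member windows searched, that of TSC2 alone held the E-box core, those of MTOR and RICTOR held the CCAAT box, and 6 held the GC box, the exception being RPTOR. The window of DEPTOR was not used here. A match describes the letters of a window and is not evidence that a factor binds there.

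MTOR, the kinase itself, lies at chr1:11106535-11262556 on the minus strand (GRCh38, GENCODE 44). Its level was 152.3, 146.2 and 151.3 CPM in the control samples and 122.5, 122.5 and 120.1 CPM in the knockdown samples. The lowest control sample was thus well above the highest knockdown sample, and the knockdown samples lay close together. The mean fell from 149.9 ± 3.28 to 121.7 ± 1.39 CPM (SD, n = 3 per group), a change of -18.8% and a log2 fold change of -0.30 (SE 0.0468, 95% confidence interval -0.398 to -0.205, edgeR quasi-likelihood adjusted p = 1.59e-05). All 14 alternative fits called it at the fold threshold of 0.25, with log2 fold changes from -0.32 to -0.253. It was not called with a fold threshold of 0.5. The study displayed MTOR among genes it selected on these same samples, so the call is not independent evidence of its direction. Genes that overlap its exons on the opposite strand had almost no reads: ANGPTL7 was at 0 and MTOR-AS1 had at most 2 counts per sample.

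RPTOR encodes Raptor, the scaffold that brings substrates to mTORC1, at chr17:80544819-80966371 on the plus strand. Other genes, on both strands, overlap 3.12% of its exonic length, and their part in its count was not tested. Control samples had 92.67, 85.19 and 83.45 CPM and knockdown samples 110.9, 94.19 and 103.8 CPM. Every knockdown sample was above every control sample, although knockdown replicate 2 exceeded control replicate 1 only slightly. The means were 87.1 ± 4.9 and 103 ± 8.39 CPM, and the log2 fold change of 0.24 (SE 0.0592, 95% confidence interval 0.119 to 0.363) passed the adjusted p (0.00253 by edgeR's quasi-likelihood test) but not the fold threshold. RPTOR was therefore not called, and it lay close enough to the threshold that 4 alternatives called it: upper-quartile scaling (0.26), scaling by library size alone (0.29), and the fits without control replicate 1 (0.29) or knockdown replicate 2 (0.30).

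RICTOR encodes the scaffold of mTORC2, at chr5:38937920-39074402 on the minus strand. Its level was 36.68, 41.98 and 42.26 CPM in control and 44.18, 43.71 and 46.56 CPM in knockdown samples. The groups did not overlap, but control replicate 1 stood below the other two controls. The means were 40.31 ± 3.14 and 44.82 ± 1.53 CPM, with a log2 fold change of 0.15 (95% confidence interval 0.0139 to 0.29) that did not pass the edgeR quasi-likelihood test (adjusted p = 0.0849). Without control replicate 1 the log2 fold change was 0.09, and with library size alone it was 0.20 and passed the adjusted p (0.0253), still under the fold threshold. OSMR, a cytokine receptor gene whose exons overlap RICTOR on the opposite strand, fell by 0.34 on the log2 scale, and its part in the RICTOR counts was not tested; the overlap covers 1.7% of the exonic length of RICTOR.

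DEPTOR, the inhibitory subunit on chromosome 8, was the least abundant member and had the largest fold change of the 8. It had 164, 132 and 151 counts in control samples and 200, 340 and 283 in knockdown samples, or 5.768, 4.191 and 4.897 CPM against 6.839, 9.625 and 8.573 CPM. The groups did not overlap, knockdown replicate 1 was nearest to the controls, and replicate 2 was highest. The mean rose from 4.952 ± 0.79 to 8.346 ± 1.41 CPM, a 1.69-fold difference (log2 fold change 0.76, SE 0.146, 95% confidence interval 0.46 to 1.06, edgeR quasi-likelihood adjusted p = 0.000206). Its standard error was the largest among the members, and the 14 alternative fits, all of which called it, gave log2 fold changes from 0.644 to 0.882. Exons of DEPTOR-AS1 on the opposite strand cover 9.59% of the exonic length of DEPTOR, the largest such share of the 8 members. Their part in the DEPTOR count was not tested.

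**Figure D2:**
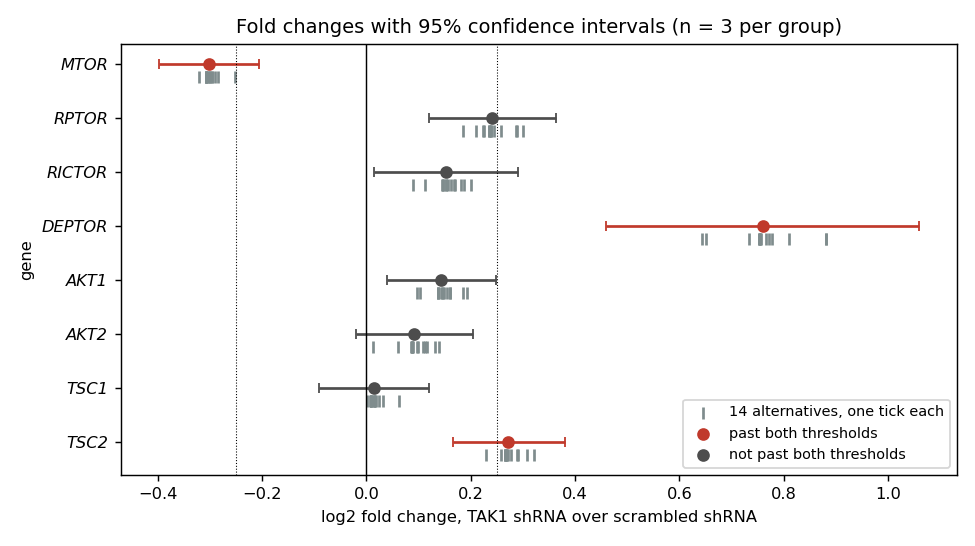
Log2 fold change of each gene, TAK1 shRNA over scrambled shRNA (n = 3 per group), with its 95% confidence interval as a bar; ticks under each bar are the values of 14 alternative fits and dotted lines mark the fold threshold of 0.25 on either side of 0. MTOR, DEPTOR and TSC2 (red) passed both thresholds, RPTOR has ticks on either side of the line, and the TSC1 ticks run from near 0 to 0.063.

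AKT1 and AKT2 encode paralogous kinases that act between PI3K and TSC2, and they were the most abundant members by reads. AKT1 (chr14:104769349-104795751, minus strand) had 239, 227.5 and 211.7 CPM in control samples and 263.6, 245.3 and 240.2 CPM in knockdown samples. The groups were separated by a narrow margin, between control replicate 1 and knockdown replicate 3. The means were 226 ± 13.7 and 249.7 ± 12.3 CPM, and the log2 fold change of 0.14 (SE 0.0505, 95% confidence interval 0.0394 to 0.248) passed the adjusted p (0.0304 by edgeR's quasi-likelihood test) and not the fold threshold. The adjusted p was no longer under 0.05 without control replicate 2 (0.0928), control replicate 3 (0.24) or knockdown replicate 1 (0.101). A gene on the opposite strand overlaps 6.05% of the exonic length of AKT1, and its part in the AKT1 count was not tested.

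AKT2 (chr19:40230317-40285536, minus strand) had 229.6, 225.8 and 213.8 CPM in control samples and 263.2, 224.2 and 226.1 CPM in knockdown samples. Knockdown replicate 1 stood above all others, while knockdown replicates 2 and 3 lay within the control range. With means of 223.1 ± 8.25 and 237.8 ± 22 CPM, the log2 fold change was 0.09 (95% confidence interval -0.0207 to 0.204) and did not pass edgeR's quasi-likelihood test (adjusted p = 0.212). Without knockdown replicate 1 it was 0.01.

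TSC1 and TSC2 encode partner proteins, hamartin and tuberin, of which tuberin carries the GTPase-activating domain directed at RHEB. TSC1 (chr9:132891348-132946874, minus strand) had 81.24, 82.33 and 79.59 CPM in control samples and 81.83, 82.3 and 81.52 CPM in knockdown samples. The knockdown values fell inside the control range, with means of 81.05 ± 1.38 and 81.88 ± 0.393 CPM. The log2 fold change was 0.01 with a 95% confidence interval of -0.09 to 0.119 (edgeR quasi-likelihood adjusted p = 0.86), an interval that excludes a difference as large as the threshold of 0.25 in either direction.

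TSC2 (chr16:2047967-2089491, plus strand) had 108.6, 112.1 and 107.2 CPM in control samples and 140, 132.5 and 123.5 CPM in knockdown samples. Every knockdown sample was above every control sample, and the knockdown samples were the more spread. The mean rose from 109.3 ± 2.54 to 132 ± 8.28 CPM, a 1.21-fold difference (log2 fold change 0.27, SE 0.0521, 95% confidence interval 0.165 to 0.38, edgeR quasi-likelihood adjusted p = 0.000207). Without knockdown replicate 1 the log2 fold change was 0.23 (adjusted p = 0.000613 by the same test), under the fold threshold, so the call rested on that sample and the adjusted p did not. PKD1, which encodes polycystin and whose exons overlap those of TSC2 on the opposite strand, rose in the same samples. PKD1 had 107.9, 119.6 and 110.5 CPM in control and 172.3, 168.9 and 141.6 CPM in knockdown samples (log2 fold change 0.51, adjusted p = 3.81e-07 by edgeR's quasi-likelihood test). Overlaps cover 3.82% of the exonic length of TSC2, the use of strand in counting is not given in the sources used here, and the part of PKD1 reads in the TSC2 count was not tested.

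Levels were compared between genes per kilobase of the union of annotated exons. In control samples AKT1 was highest at 20.6 ± 1.25 CPM per kb, followed by AKT2 at 14 ± 0.519, MTOR at 11.2 ± 0.245 and RPTOR at 8.45 ± 0.475 CPM per kb. TSC2 (5.32 ± 0.124), TSC1 (4.61 ± 0.0784), RICTOR (3 ± 0.234) and DEPTOR (1.89 ± 0.301 CPM per kb) came below them, and no neighbours in this order overlapped across the 3 control samples. In knockdown samples RPTOR, at 10 ± 0.814 CPM per kb, stood above MTOR at 9.1 ± 0.104 in the order of means, but RPTOR in replicate 2 (9.143) was below MTOR in replicates 1 and 2 (9.16 and 9.158), so the pair overlapped. DEPTOR, at 3.18 ± 0.536 CPM per kb, overlapped RICTOR at 3.33 ± 0.113. The order depended on the length used: 6 of 8 members kept their control place with the longest transcript, where AKT2 was above AKT1, and 6 of 8 with the MANE Select transcript, where TSC2 was above RPTOR.

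Ratios of counts within a sample do not depend on scaling between samples. DEPTOR to MTOR, the inhibitor against the kinase, had log2 ratios of -4.723, -5.124 and -4.95 in control and -4.163, -3.669 and -3.808 in knockdown samples. DEPTOR thus had 0.0328 counts per MTOR count in control and 0.0679 in knockdown samples (means on the log2 scale turned back), with no overlap and a log2 difference of 1.05. TSC1 to TSC2 had log2 ratios of -0.418, -0.445 and -0.429 against -0.775, -0.687 and -0.599, or 0.742 and 0.621 TSC1 counts per TSC2 count. Both differences had the smallest p that 3 samples against 3 can give in a two-sided exact permutation test (p = 0.1, adjusted p = 0.15 over 6 ratios).

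RPTOR to RICTOR, the scaffold of mTORC1 against that of mTORC2, overlapped between groups, with a log2 difference of 0.08 (exact permutation p = 0.6, adjusted p = 0.6). AKT2 to AKT1 overlapped as well, with a difference of -0.06 (exact permutation p = 0.3, adjusted p = 0.36). Another 2 ratios were added after the data were seen. RPTOR to MTOR went from 0.58 to 0.844 and RHEB to TSC2 from 1.4 to 0.967, each without overlap and each at the smallest possible exact permutation p (0.1, adjusted 0.15). No ratio passed 0.05, a level that this number of samples cannot reach.

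**Figure D3:**
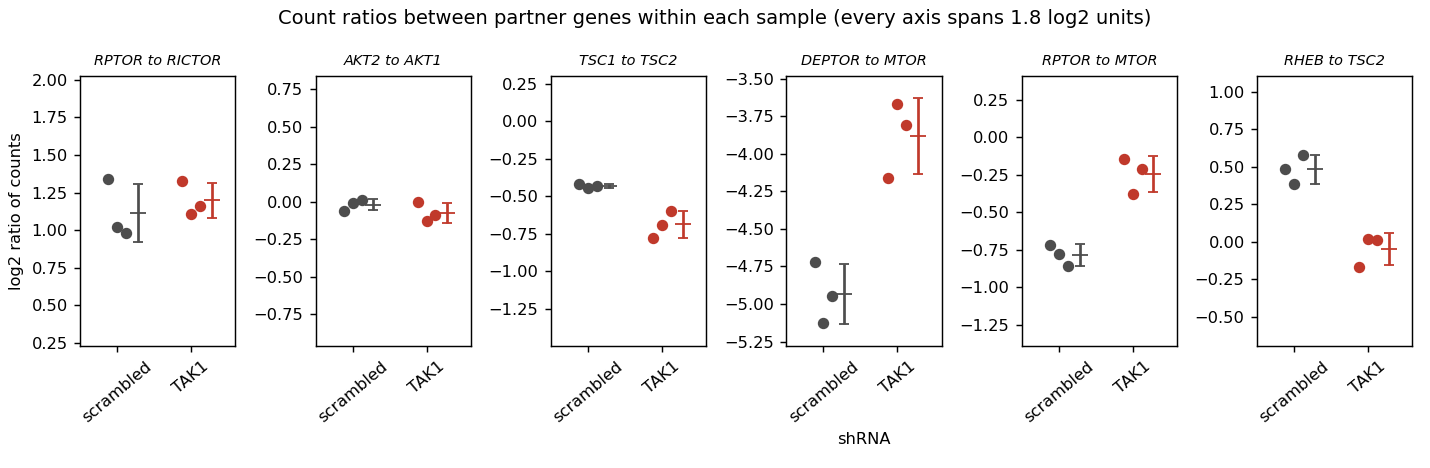
Log2 ratio of counts of 6 gene pairs in each sample (grey, scrambled shRNA; red, TAK1 shRNA; mean ± SD beside the points), all on axes of equal span. RPTOR to RICTOR and AKT2 to AKT1 overlap between the groups, while DEPTOR to MTOR, with a difference of 1.05, shows the widest gap.

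Beyond the 8 members, 90 other genes of the pathway were examined in 6 lists by role, of which 84 passed the expression filter. Of these, 13 rose and 5 fell (21.4% called, against 23.1% of all tested genes), and their median log2 fold change was 0.02, as over all genes. Over all tested genes 11.8% were called higher and 11.3% lower. By sign alone, 45 of the 84 were higher and 39 lower, against 8370 and 7565 of the 15935 genes tested. The count of 5 was 3 without control replicate 1 and 2 without control replicate 2 or knockdown replicate 1. In those fits, in that order, 1759, 1675 and 1714 of all genes tested were called lower. The shares called in either direction were 21.5%, 20% and 20.9%. The untested 6 were PIK3CG, PIK3R2, INPP5D, PRKAA2, CASTOR1 and EIF4EBP3.

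Among 8 other complex subunits and assembly factors, 1 rose and 1 fell (25% called, against 23.1% of all tested genes), with a median log2 fold change of 0.12. These were paralogous mTORC2 subunits: PRR5 (Protor-1) rose by 0.44 on the log2 scale, from 31.76 ± 1.22 to 43.17 ± 3.27 CPM, and PRR5L (Protor-2) fell by 0.39, from 6.962 ± 1.01 to 5.309 ± 0.317 CPM. PRR5L was not called without control replicate 2 or knockdown replicate 1, nor with scaling by library size alone. PRR5 shares exons with the read-through gene PRR5-ARHGAP8, so the PRR5 count is uncertain. The subunits common to both complexes and to mTORC1 alone, MLST8 (0.17) and AKT1S1 (0.18), named here after their values were seen, passed the adjusted p but not the fold threshold (0.0286 and 0.0114 by edgeR's quasi-likelihood test).

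Of 8 tested genes for PI3K and PDK1, 2 rose and 1 fell (37.5% called, against 23.1% of all tested genes), with a median of 0.02. The regulatory subunit PIK3R3 rose from 64.71 ± 2.17 to 91 ± 3.53 CPM (log2 fold change 0.49, edgeR quasi-likelihood adjusted p = 9.87e-08), although its exons are partly shared with a read-through gene and its count is uncertain. The catalytic subunits moved apart, PIK3CA by 0.27 and PIK3CB by -0.32, and each lost its call in some fits that left out a sample: PIK3CA without control replicate 3 or knockdown replicate 2 or 3, PIK3CB without control replicate 1 or 3. KCNMB3, on the opposite strand, overlaps 19.8% of the exonic length of PIK3CA, and its part in the PIK3CA count was not tested. Of 4 tested phosphatases that oppose PI3K or AKT, none was called higher and 1 lower by edgeR, DESeq2 or limma voom (25% by edgeR, against 23.1% of all tested genes). DESeq2 called 21.9% of all tested genes and limma voom 22.7%. At an unadjusted p under 0.05, 1 was higher and 2 lower, and the same counts passed edgeR's adjusted p. Over all tested genes, 16.1% and 17.2% passed the adjusted p. INPP4B (log2 fold change 0.23, adjusted p = 0.003) and INPPL1 (-0.16, adjusted p = 0.0218) missed the fold threshold alone. Both were named after their values were seen. PHLPP2, which dephosphorylates AKT, fell by 0.26 and was called. That call was absent without control replicate 1 or 2 or knockdown replicate 1 and with upper-quartile or library size scaling. Genes on the opposite strand overlap 11% of the exonic length of PHLPP2, and their part in its count was not tested.

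Of 13 tested genes for the TSC complex, RHEB and energy sensing, 2 rose and 2 fell, with a median of -0.05. The share called was 30.8%, against 23.1% of all tested genes. RHEB, the GTPase on which TSC2 acts, had 151.8, 146.5 and 160.3 CPM in control and 124.4, 133.9 and 124.4 CPM in knockdown samples, with every knockdown sample below every control sample. It fell by 0.26 on the log2 scale (edgeR quasi-likelihood adjusted p = 0.000237) and was not called without control replicate 3 or knockdown replicate 1, nor with upper-quartile or library size scaling; its values in the 14 alternative fits ran from -0.298 to -0.212. DDIT4 (REDD1), a stress-induced inhibitor of mTORC1, rose from 59.5 ± 1.92 to 82.8 ± 4.52 CPM (0.48), and PRKAB2, a subunit of the energy sensor AMPK, rose by 0.37. DDIT4L, a relative of DDIT4, fell by 1.05 at no more than 1.08 CPM, and this call was lost whichever sample was left out.

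Of 29 tested genes for lysosomal amino acid sensing, 5 were called higher and none lower, with a median of 0.05. The share called, 17.2%, was below the 23.1% of all tested genes. DESeq2 and limma voom each called 4 higher and none lower, against 21.9% and 22.7% of all tested genes called in either direction. By edgeR's unadjusted p under 0.05, 8 were higher and 3 lower, a level at which the share of all genes was not counted. By the adjusted p alone, 6 were higher and 2 lower, against 16.1% and 17.2% of all tested genes. The 2 lower ones, RRAGA (log2 fold change -0.23, adjusted p = 0.0167) and LAMTOR5 (-0.20, adjusted p = 0.02), missed the fold threshold alone and were named after their values were seen. FLCN and FNIP1, which form the folliculin complex acting on Rag GTPases, rose by 0.39 and 0.38 on the log2 scale, and the Rag GTPase RRAGD rose by 0.46. NPRL3 (0.25), a GATOR1 subunit, and SESN1 (0.56), of the leucine-sensing sestrin family, rose as well. All but NPRL3 were called in all 14 alternative fits, and NPRL3 in 6 of 14; it was not called by DESeq2 or limma voom, with RLE size factors, with no filter, or without control replicate 2 or 3 or knockdown replicate 1. FLCN and FNIP1 share some exon sequence with overlapping genes on the same strand. Genes on the opposite strand overlap 14.1% of the exonic length of NPRL3, and their part in its count was not tested.

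Of 22 tested substrates and effectors, 3 were called higher and none lower by edgeR, DESeq2 or limma voom, with a median of 0.03. The share called by edgeR, 13.6%, was below the 23.1% of all tested genes. DESeq2 called 21.9% of all tested genes and limma voom 22.7%. By edgeR's adjusted p alone, 4 were higher and 3 lower, against 16.1% and 17.2% of all tested genes. The lower ones were GRB10 (log2 fold change -0.23, adjusted p = 0.000729), EIF4B (-0.14, adjusted p = 0.0182) and EIF4E (-0.17, adjusted p = 0.021). At an unadjusted p under 0.05 there were 5 higher and 4 lower, a level at which the share of all genes was not counted. The other lower one was SGK3, with a log2 fold change of -0.73 and an adjusted p of 0.0574 by edgeR. SGK3 had 24 to 57 counts per sample. It shares 44% of its exonic length with the read-through gene C8orf44-SGK3, so its count is uncertain. These 4 lower genes were named after their values were seen. ULK1, the kinase that starts autophagy and is inhibited by mTORC1, had 65.98, 66.87 and 60.88 CPM in control and 114.5, 108.9 and 102.9 CPM in knockdown samples. The groups stood far apart, with a 1.68-fold difference (log2 fold change 0.75, SE 0.056, edgeR quasi-likelihood adjusted p = 1.29e-10). EIF4EBP2, a translation repressor phosphorylated by mTORC1, rose by 0.41 and FOXO3, a transcription factor held in the cytoplasm by AKT, rose by 0.42, and all 14 alternative fits called these 3 genes.

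**Figure D4:**
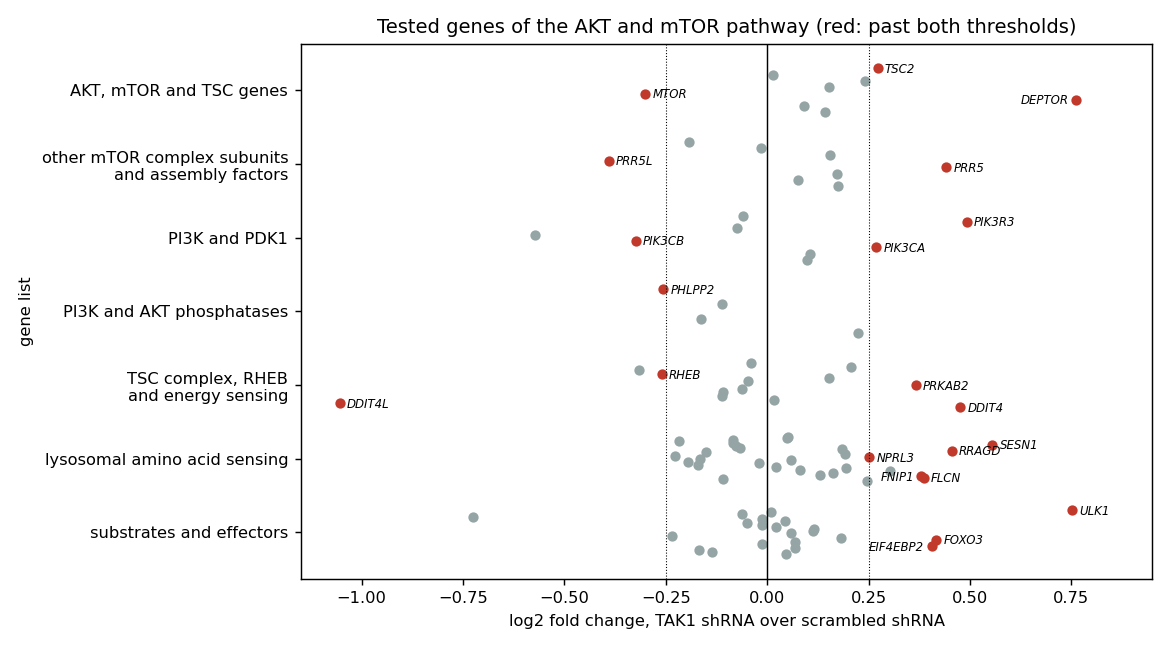
Log2 fold change of the 8 genes and of 84 other tested genes of the pathway, a point for each gene, in rows by role; red points with names passed both thresholds and dotted lines mark a log2 fold change of 0.25 on either side of 0. Red points lie on both sides of 0 in 4 rows, on the right alone for amino acid sensing (5 genes) and for substrates and effectors (3 genes), and on the left alone for the phosphatases (1 gene). The shares called in these last 3 rows were 17.2%, 13.6% and 25%, against 23.1% of all tested genes.

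The tested genes whose log2 CPM followed MTOR most closely over the 6 samples were MOB1B (Pearson r = 0.9995), PIP4K2B (0.9987) and TP53I11 (0.9985), given as a description. The samples form 2 groups, so r largely reflects a shared difference between them. MOB1B had 40.13, 37.53 and 39.83 CPM in control and 27.84, 27.72 and 26.38 CPM in knockdown samples, with control replicate 2 the lowest of its group as for MTOR.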

How the data were processed

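Poly(A) RNA-seq was measured in 6 samples of RD cells, 3 with scrambled shRNA and 3 with TAK1 shRNA, grouped by their labels. The authors called bases with CASAVA, removed adaptor and low-quality reads, aligned to GRCh38 with STAR, and deposited raw counts per gene without normalization. The counter, its annotation and its use of strand are not given in the sources used here.

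The 8 genes and the pathway lists were chosen with earlier results of these data known. Counts were tested with edgeR 4.0.16 (R 4.3.3): default expression filter, trimmed mean of M-values, quasi-likelihood test, and Benjamini-Hochberg adjustment over 15935 genes. Genes were called at 0.05 for the adjusted p together with a log2 fold change of 0.25 or more in size. Total counts of 28839898 to 34469323 and a common biological coefficient of variation of 5.67% set the precision. Alternatives were DESeq2 1.42.0, limma 3.58.1 (voom), other scalings, filters and fold thresholds, a replicate block, and leaving out each sample. Count ratios were compared by two-sided exact permutation over samples. Gene positions, overlaps and lengths came from GENCODE 44, and promoter windows from RefSeq. Scripts were tested on simulated data. Genes named by plan were all 8 members, MAP3K7, called genes of the lists (at most 6 per list) and the 3 genes most like MTOR. Cell type markers, untested list genes and genes that overlap members or list genes are named as well. Other list genes given with values were named after their values were seen. SAMTOR and KICS2 were found under older symbols. Some genes and a ratio drawn from the lists are not reported here, and counts are over the others.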

Additional observations from a re-analysis of the deposited data

How the results depend on the processing

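The calls of MTOR and DEPTOR held in all 14 alternative fits; no member reversed. The number of members called higher, 2, was 1 and the number lower, 1, was 0 with a fold threshold of 0.5, and 4 were higher with no fold threshold; leaving out each sample gave 1 to 3 higher and 1 lower. The pathway counts of 13 higher and 5 lower became 2 and 1 with a threshold of 0.5, and 19 and 11 without a fold threshold. Lower genes numbered 3 with upper-quartile scaling and 2 with library size alone, and leaving out each sample gave 11 to 14 higher and 2 to 5 lower. Over all tested genes, 1879 rose and 1805 fell, against 2376 and 1404 with library size alone and 2027 and 1662 with upper-quartile scaling. With fold thresholds of 0.5 and none, these counts were 735 and 680, and 2569 and 2734. Leaving out each sample gave 1582 to 1810 higher and 1675 to 1931 lower over all genes tested in each fit (20% to 23% called). The length used left 6 of 8 members in place for the longest transcript and 6 for MANE Select. The directions of the 6 ratios held without each sample.

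Replicates that share a number did not deviate together (correlations 0.037, 0.0364 and 0.0165), and the labels give them no shared source. With a replicate block the counts were 1942 higher and 1848 lower over all genes, 2 and 1 for the members and 12 and 6 for the pathway; RICTOR then passed the adjusted p (0.0384), under the fold threshold, and NPRL3 lost its call; the difference between groups of each ratio is the same by construction, such as 1.05 for DEPTOR to MTOR. Every sample but control replicate 3 correlated best with its own number.

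Among the 8 members depth limits DEPTOR most, with 132 to 340 counts per sample; among called pathway genes, DDIT4L had at most 34. Reads shared with overlapping genes were not separable here. The data hold mRNA levels only; protein and phosphorylation were not analysed here.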

Other observations

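PIK3R2, a regulatory subunit of PI3K, had 1 to 10 counts per sample and was not tested. In GENCODE 44, 76.4% of its exonic length lies in exons of another gene on the same strand (the part of this overlap in the low count was not tested).

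RHEBL1, a paralog of RHEB, had 7.121 ± 0.838 CPM in control and 5.744 ± 0.592 CPM in knockdown samples (log2 fold change -0.32, adjusted p = 0.0734 by edgeR's quasi-likelihood test, not called). TFEB, a transcription factor controlled by mTORC1 and Rag GTPases, had 34 to 50 counts per sample. Its level was 1.244 ± 0.051 CPM in control and 1.253 ± 0.239 CPM in knockdown samples, whereas its paralog TFE3 had 58.64 ± 2.55 and 56.21 ± 4.41 CPM (log2 fold change -0.06). These genes were named after their values were seen.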
